A study of Mus musculus with 6 samples.

Results

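Interferons act on cells through paired receptor chains, and the genes described here encode those chains and transcription factors that carry the signal into the nucleus. The 9 genes were taken by symbol from a table of 24061 genes: the type I receptor chains Ifnar1 and Ifnar2, the type II receptor chains Ifngr1 and Ifngr2, the signal transducer Stat2, and the interferon regulatory factors Irf1, Irf3, Irf7 and Irf9. All 9 had a row, and all 9 passed the low-count filter that left 14190 genes for testing. RNA was sequenced from 6 libraries of cultured lung fibroblasts, labelled resident fibroblasts and isolated from fibrotic lungs of TGF-alpha transgenic mice. In 3 libraries (numbered 1 to 3) the cells had received a control stealth siRNA, and in 3 (numbered 4 to 6) a stealth siRNA against Wt1, the Wilms tumor zinc finger transcription factor. Every library, controls included, carries the transgene and comes from fibrotic tissue. The labels name no added interferon in any group. Not given in the sources used here are the transgene's promoter, the age and strain of the mice, the siRNA sequences, the time to harvest and whether the libraries of a group are separate cultures or animals. The p-values therefore measure only the spread between these libraries, which may be technical.

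Type I interferons bind a receptor of IFNAR1 and IFNAR2, which works with the kinases TYK2 and JAK1. Activated STAT2 then joins IRF9 in a complex called ISGF3, which binds interferon-stimulated response elements (ISREs) in promoters. Interferon gamma binds a receptor of IFNGR1 and IFNGR2, works with JAK1 and JAK2, and acts on genes through gamma-activated sites (GAS); Irf1 is a classical target of that branch. IRF3 is present before stimulation and is activated by nucleic acid sensors, while Irf7 is itself induced by interferon, and both drive the genes of type I interferons. Fibroblasts carry both receptors and respond to both kinds of interferon.

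Promoter sequences are shown for the 5 of the 9 genes in which a search for elements of these branches, or for the GC-rich core recognised by WT1 and EGR proteins, found a match. RefSeq windows (GRCm38.p6), each with 250 bases before and 50 from an annotated start site on, held all 9 genes in 11 windows. Both strands were searched for the ISRE core (GAAA, any 2 bases, GAAA), for TTCNNNGAA (GAS) and for GCGNGGGNG (the GC-rich core). GAS reads alike on both strands in this form. Matches are in capitals on the strand of the gene, and all of these genes lie on the plus strand.
Stat2, chr10:128270248-128270320: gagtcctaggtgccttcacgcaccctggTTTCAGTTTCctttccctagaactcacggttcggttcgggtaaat
Irf1, chr11:53769914-53769993: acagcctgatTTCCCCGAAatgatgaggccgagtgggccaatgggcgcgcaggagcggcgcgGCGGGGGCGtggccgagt
Ifnar1, chr16:91485195-91485224: ggagggGCGGGGGCGTTCACGGAAggggcg
Ifnar2, chr16:91372533-91372612: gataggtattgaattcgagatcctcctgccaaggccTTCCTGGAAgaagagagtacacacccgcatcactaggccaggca
Ifngr2, chr16:91546968-91547047: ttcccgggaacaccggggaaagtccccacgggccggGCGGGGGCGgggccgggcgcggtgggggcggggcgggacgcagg
Counted from 0 at the annotated start site, the Stat2 stretch holds the ISRE core on its minus strand at positions -222 to -213. In Irf1 a GAS lies at -90 to -82 and a GC-rich core at -38 to -30. In Ifnar1 a GC-rich core and a GAS follow each other without a gap across the start site of its window. That start site lies inside the gene as placed below, which begins at 91485032. Ifnar2 and Ifngr2 hold 1 match each, a GAS and a GC-rich core. The windows of Irf3, Irf7, Irf9 and Ifngr1 hold none of these letters. Over all 32851 windows of the same length, 3.44% held the ISRE core, 8.3% GAS and 12.3% the GC-rich core. A match is a description of letters, not of a bound site.

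Wt1 itself was measured first, as a check of the labels. Its level, in counts per 1e6 (CPM, scaled with TMM factors), was 48.8, 55.7 and 51.5 in the controls and 11.4, 8.63 and 7.92 after Wt1 siRNA, so that the targeted gene was lower in each library labelled Wt1 siRNA. Library totals were 26.1 to 32.1 (in units of 1e6), so that 3 counts are worth 0.0926 to 0.113 CPM. All 10 listed fibroblast markers were tested, and 6 were higher and 2 lower, against 9.05% and 10.3% of all tested genes. Their summed level was 22942 to 32728 CPM in controls and 35654 to 43627 CPM after Wt1 siRNA. Collagen genes had the highest means in this sum: Col1a1 rose from 7982 to 17421 CPM and Col1a2 from 5793 to 9655 CPM. The 2 lower were Col3a1 (7430 to 5391 CPM) and Pdgfra (1181 to 523 CPM). Listed macrophage and monocyte markers, 12 genes, summed to 41.5 to 51.1 CPM in controls and 34.3 to 38.8 CPM after Wt1 siRNA. C1qa was at 0 in every library. Of the 12 markers 6 were tested, and Cd14 was the 1 of these that passed, lower. The highest means in that list were those of Cd14 (18.7 to 8.41 CPM) and of Lyz2 (19.7 to 21.7 CPM). The 8 epithelial markers summed to 47.2 to 64.2 and 40.3 to 46.6 CPM, with Scgb1a1 at 0. The 6 endothelial markers summed to 85.1 to 105 and 69.5 to 82.9 CPM. In the epithelial and in the endothelial list 5 markers were tested and 1 was lower. The 5 T and B cell markers summed to at most 0.827 CPM, with Cd3e and Cd3g at 0, and 0 of them were tested. The 6 plasmacytoid dendritic cell markers summed to 49.1 to 74.3 and 31.8 to 38.3 CPM, nearly all of it Bst2. Bst2 is also an interferon-stimulated gene. Of these markers 2 were tested and 1, Bst2, was lower, while Ccr9 and Spib were at 0. The part of other cell types in the results below was not tested, and in such bulk libraries fewer cells of a type and less RNA per cell cannot be told apart.

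After Wt1 siRNA both chains of the interferon gamma receptor were higher, and 1 chain of the type I receptor, Ifnar1, was lower, as were Stat2, Irf9 and Irf7. Ifngr1 and Ifngr2 rose 1.43-fold and 1.39-fold, while Ifnar1 fell to a level 1.59-fold lower. Stat2, Irf9 and Irf7 were 2.04-fold, 1.40-fold and 3.42-fold lower. Ifnar2, Irf1 and Irf3 did not pass the test. Of the 9 genes 2 were thus higher and 4 lower (edgeR's quasi-likelihood test, p adjusted by Benjamini-Hochberg over all 14190 genes and below 0.05), against 19.3% of all tested genes called, 9.05% as higher and 10.3% as lower. The groups did not overlap in 7 of the 9 genes, against 36.4% of all tested genes. The median log2 fold change of the 9 was -0.21 and that of all tested genes 0.00349.

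**Figure D1:**
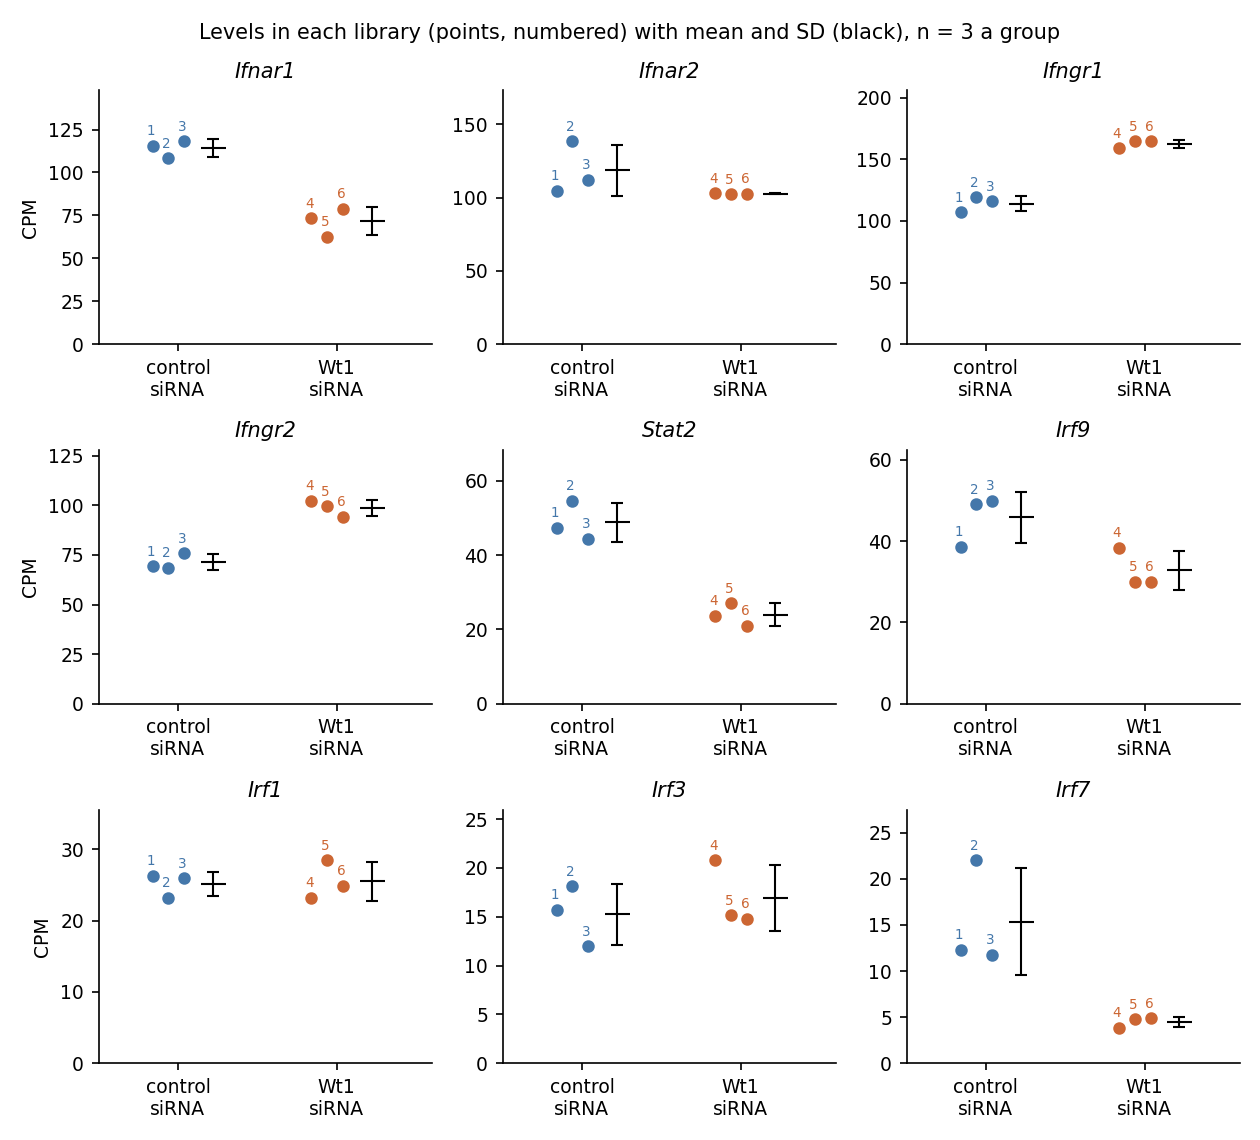
Level of each of the 9 genes in CPM (vertical axis from 0) in the 3 control siRNA and 3 Wt1 siRNA libraries; numbered points are libraries and black marks the mean with SD. The Wt1 siRNA points of Ifngr1 and Ifngr2 lie above all control points, those of Ifnar1, Stat2 and Irf7 well below, and those of Irf1 and Irf3 among them.

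The type I receptor was measured through both of its chains. Ifnar1 (gene ID 15975, chromosome 16 of GRCm38, 91485032 to 91510523; here and for all genes the count covers the gene as a whole) encodes the chain that works with TYK2. It stood at 116, 108 and 118 CPM in control libraries 1 to 3 and at 73.3, 62.6 and 78.9 CPM in Wt1 siRNA libraries 4 to 6. The Wt1 siRNA libraries were all lower, and the gap between the groups was wider than the spread within either. The means were 114 ± 5.20 and 71.6 ± 8.29 CPM (SD, n = 3), and the log2 fold change was -0.67 ± 0.11 (SE; edgeR adjusted p = 0.00186).

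Ifnar2 (gene ID 15976, chromosome 16, 91372783 to 91405589) encodes the chain that works with JAK1 and binds interferon most tightly. It had 105, 138 and 112 CPM in the controls and 103, 102 and 103 CPM after Wt1 siRNA. The Wt1 siRNA libraries lay just below the lowest control, and control library 2 stood well above the other controls. The log2 fold change of -0.21 ± 0.12 did not pass (edgeR adjusted p = 0.259), with a 95% interval from -0.47 to 0.05. Without control library 2 it was -0.08. Soluble and membrane forms of this chain come from 1 gene and are not separated in gene counts. Of the annotated exon bases of Ifnar2 9.46% are shared with Gm21970 on the same strand, which had no row under that symbol.

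The type II receptor chains were both higher. Ifngr1 (gene ID 15979, chromosome 10, 19591949 to 19610229), the chain that binds interferon gamma, had 107, 119 and 116 CPM in the controls and 159, 165 and 165 CPM after Wt1 siRNA. Each Wt1 siRNA library was above every control, and the 3 Wt1 siRNA values were close together. The means were 114 ± 6.36 and 163 ± 3.34 CPM (SD, n = 3), and the log2 fold change was 0.51 ± 0.10 (edgeR adjusted p = 0.00396).

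Ifngr2 (gene ID 15980, chromosome 16, 91547059 to 91564007) encodes the chain that brings JAK2 into the complex. Its levels were 69.4, 68.6 and 76.0 CPM in the controls and 102, 99.7 and 94.3 CPM after Wt1 siRNA. All Wt1 siRNA libraries were again above all controls. The log2 fold change was 0.47 ± 0.10 (edgeR adjusted p = 0.00783). Without Wt1 siRNA library 4 it was 0.45 with an adjusted p = 0.0585, so that the call then ended and 1 of the 9 genes was higher.

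**Figure D2:**
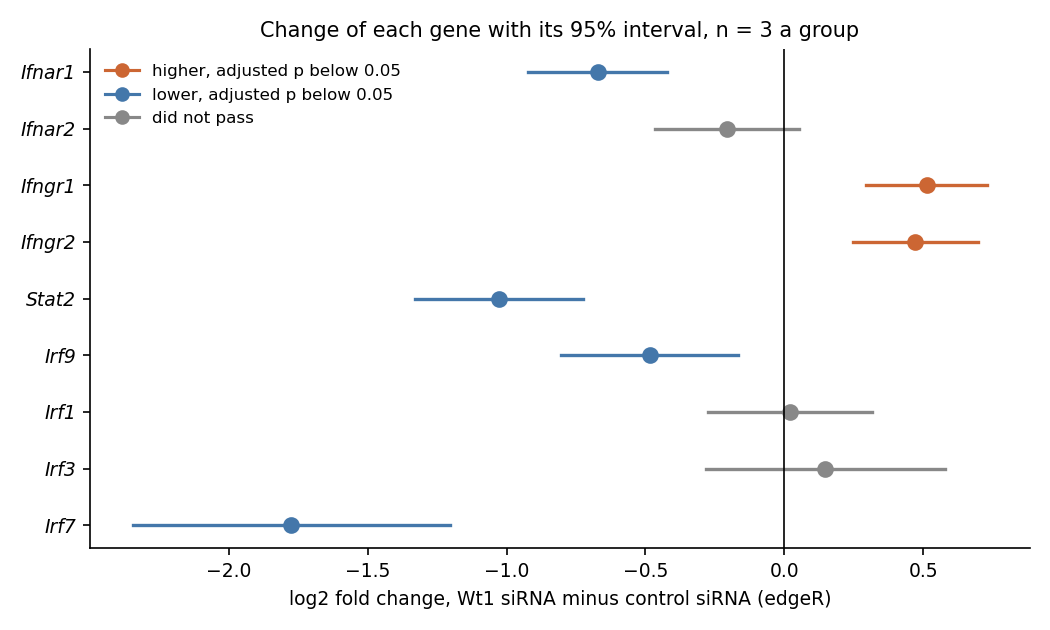
Log2 fold change of each gene (horizontal axis, Wt1 siRNA minus control siRNA, edgeR) with its 95% interval, for 3 libraries a group. The intervals of Ifngr1 and Ifngr2 lie above 0, those of Ifnar1, Stat2, Irf9 and Irf7 below, and those of Ifnar2, Irf1 and Irf3 include 0.

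Ratios of counts within a library do not depend on how libraries are scaled, and 6 were computed. The ratio of Ifngr1 to Ifnar1 counts was 0.926, 1.10 and 0.981 in the controls and 2.17, 2.63 and 2.09 after Wt1 siRNA. It was 2.28-fold higher, and the ratio of Ifngr2 to Ifnar1 was 2.22-fold higher, with no overlap between groups in either. The ratio of the type II chains to each other stayed between 1.53 and 1.75 in all 6 libraries, and its groups overlapped.

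The ratio of Ifnar1 to Ifnar2 counts was 1.10, 0.781 and 1.05 in the controls and 0.712, 0.611 and 0.768 after Wt1 siRNA, a 1.39-fold lower value whose groups were separated only narrowly. The Irf7 to Irf3 ratio was 3.67-fold lower without overlap, and the Stat2 to Irf9 ratio 1.46-fold lower with overlap. The exact permutation test (two-sided) gave p = 0.1 for each ratio without overlap, which is the smallest p that 3 libraries against 3 allow, and 0.15 after Benjamini-Hochberg adjustment over the 6 ratios. The same exact test gave p = 0.5 for Ifngr1 to Ifngr2 and p = 0.2 for Stat2 to Irf9. None of the 6 could pass 0.05 in this design.

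**Figure D3:**
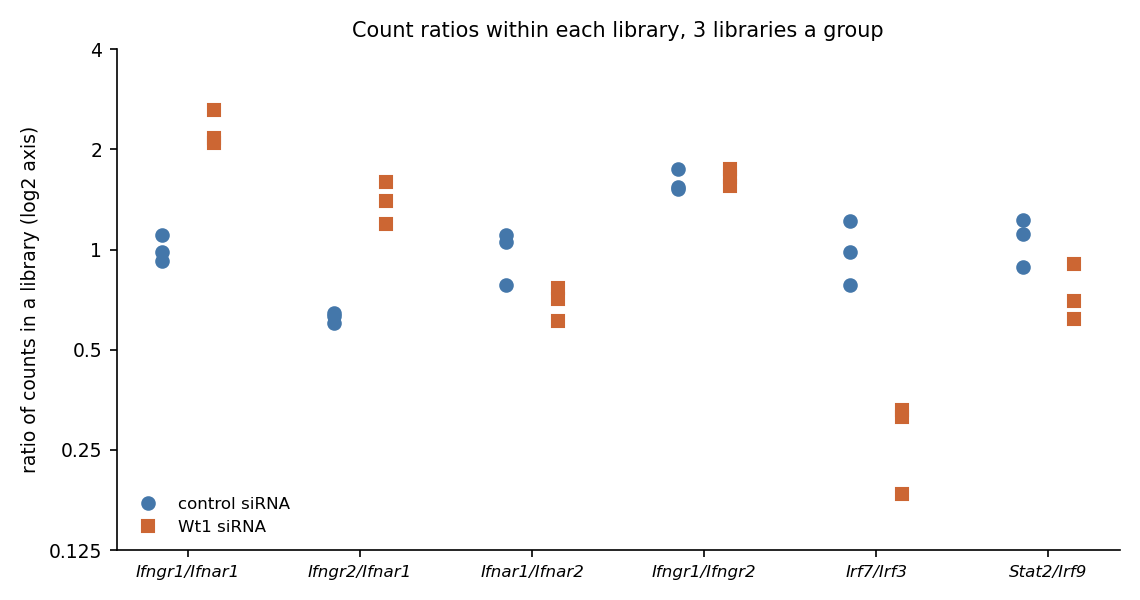
Ratio of the counts of 2 genes within each library (vertical log2 axis), with circles for the 3 control siRNA and squares for the 3 Wt1 siRNA libraries. Ifngr1/Ifnar1 and Ifngr2/Ifnar1 are separated upwards and Irf7/Irf3 downwards, while the groups of Ifngr1/Ifngr2 and Stat2/Irf9 overlap.

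Of the 4 receptor genes, 3 lie in 1 cluster on chromosome 16, in the order Ifnar2, Il10rb, Ifnar1 and Ifngr2 within 191 kb. Il10rb encodes a chain shared by the receptors of interleukin 10 and of lambda interferons. It went from 47.4 ± 5.21 to 37.7 ± 2.01 CPM (log2 fold change -0.33 ± 0.12, edgeR adjusted p = 0.0826) and did not pass. The start of Ifngr2, which was higher, is 62.0 kb from that of Ifnar1, which was lower. On the far side of Ifngr2, Tmem50b (-0.26 ± 0.15), Dnajc28 (0.09 ± 0.30) and Gart, a purine synthesis enzyme (0.26 ± 0.12), did not pass. Of the tested rows around the cluster, Ifnar1 and Ifngr2 were thus the 2 that passed. Ifnar2, Il10rb, the microRNA row Mir6367, Tmem50b, Dnajc28 and Gart did not. Of all tested genes 19.3% were called, and the cluster was not tested against that share.

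**Figure D4:**
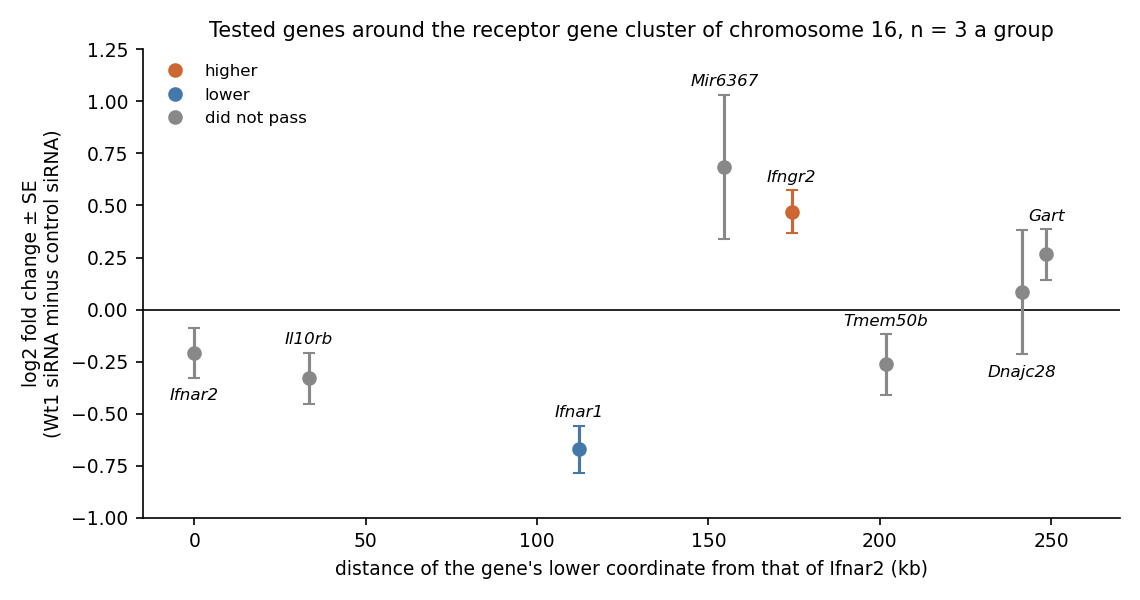
Log2 fold change with SE (vertical axis) of the tested genes around the chromosome 16 receptor cluster, against the distance of each gene's lower coordinate from that of Ifnar2 in kb, for 3 libraries a group. Ifnar1 lies below 0 and Ifngr2 above it, and the other points, the microRNA row Mir6367 included, did not pass.

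Stat2 and Irf9 encode partners in ISGF3. Stat2 (gene ID 20847, chromosome 10, 128270498 to 128292853) had 47.4, 54.7 and 44.4 CPM in the controls and 23.7, 27.1 and 21.0 CPM after Wt1 siRNA. All 3 Wt1 siRNA libraries were far below the lowest control. The means were 48.8 ± 5.27 and 24.0 ± 3.05 CPM (SD, n = 3), and the log2 fold change was -1.03 ± 0.14 (edgeR adjusted p = 4.52e-04). Its promoter is the 1 among the 11 windows that holds the ISRE core.

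Irf9 (gene ID 16391, chromosome 14, 55603985 to 55610030), the DNA-binding part of ISGF3, had 38.6, 49.1 and 49.96 CPM in the controls and 38.3, 30.01 and 30.04 CPM after Wt1 siRNA. Control library 1 and Wt1 siRNA library 4 nearly met, at 38.6 and 38.3 CPM. The log2 fold change of -0.49 ± 0.15 passed narrowly (edgeR adjusted p = 0.0369). The call ended without control library 2 (adjusted p = 0.0831), library 3 (0.132), library 5 (0.124) or library 6 (0.114). Of the annotated exon bases of Irf9 2.28% are shared with Rnf31, whose log2 fold change was 0.29 ± 0.22.

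The interferon regulatory factors outside ISGF3 differed. Irf7 (gene ID 54123, chromosome 7, 141263183 to 141266499), which amplifies type I interferon production, had 12.3, 22.03 and 11.8 CPM in the controls and 3.83, 4.75 and 4.88 CPM after Wt1 siRNA. The lowest control was far above the highest Wt1 siRNA library, while control library 2 stood well above the other controls. The means were 15.4 ± 5.77 and 4.49 ± 0.57 CPM (SD, n = 3), and the log2 fold change was -1.77 ± 0.26 (edgeR adjusted p = 7.94e-04). Without control library 2 it was -1.42. Of the tested genes 1.17% had a lower log2 fold change than Irf7.

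Irf3 (gene ID 54131, chromosome 7, 44997648 to 45002848), the factor that sensing kinases activate without new synthesis, had 15.7, 18.1 and 11.95 CPM in the controls and 20.8, 15.2 and 14.8 CPM after Wt1 siRNA. The groups overlapped, and the highest value was that of Wt1 siRNA library 4. The log2 fold change was 0.15 ± 0.20 (edgeR adjusted p = 0.664; 95% interval -0.28 to 0.58), and it was -0.03 without that library. Exons of Irf3 share 2.56% of their bases with Bcl2l12 on the other strand, and those of Irf7 1.19% with Phrf1; neither of these neighbours passed.

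Irf1 (gene ID 16362, chromosome 11, 53770014 to 53778374), a factor induced by interferon gamma, whose GAS match is shown above, had 26.3, 23.2 and 25.9 CPM in the controls and 23.2, 28.5 and 24.9 CPM after Wt1 siRNA. The groups lay on top of each other. The log2 fold change was 0.02 ± 0.13 (edgeR adjusted p = 0.945), with a 95% interval from -0.27 to 0.31, and its sign turned with library size scaling (-0.07). The interval reaches from 1.21-fold lower to 1.24-fold higher. Exons of Irf1 share 3.40% of their bases with Gm17334 on the other strand, which had no row under that symbol.

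Levels of different genes were compared per kilobase of the longest annotated transcript. In the controls Ifngr1 stood highest at 54.0 ± 3.01 CPM per kb, followed by Ifnar2 (38.9 ± 5.80), Ifnar1 (29.2 ± 1.33) and Ifngr2 (19.2 ± 1.09), and the libraries of neighbours in this order did not overlap. The factors were lower, with Irf9 at 15.5 ± 2.13, Irf1 at 11.8 ± 0.78, Stat2 at 11.1 ± 1.20, Irf3 at 7.52 ± 1.53 and Irf7 at 6.87 ± 2.58 CPM per kb (SD, n = 3). Irf1 and Stat2 overlapped, as did Irf3 and Irf7. After Wt1 siRNA Ifngr1 reached 77.1 ± 1.58 CPM per kb and Ifngr2 (26.6 ± 1.10) stood above Ifnar1 (18.3 ± 2.12), while Stat2 (5.45 ± 0.69) was below Irf3 (8.33 ± 1.65) and Irf7 was last at 2.01 ± 0.26. With the median transcript length Ifnar2 was at 57.2 CPM per kb in controls and came before Ifngr1, and Irf7 before Irf3.

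For each gene the 2 most similar profiles were taken from 10889 genes outside the lists, by Pearson correlation of log2 CPM over the 6 libraries. These correlations share the group difference and the libraries, and serve as a description. Ifnar1 was closest to Mmp3, a stromelysin (r = 0.998), and Gm44505. Stat2 was closest to Ercc5, a DNA repair nuclease (r = 0.998), and Mgat3, Irf9 to Rnaseh2c, a subunit of ribonuclease H2 (r = 0.998), and Gbp9, and Irf7 to Tnks1bp1 and Rwdd1 (r = 0.999 for each). Ifngr1 was closest to Dusp14 and Epha1, and Ifngr2 to 9930111J21Rik1 and Pcdh18 (r = 0.999 for each). Ifnar2 was closest to Mcam and Snrnp70, Irf1 to Zdhhc24 and Exoc8, and Irf3 to Saysd1 and Tmco3. Sizes differed within such pairs: Mmp3 had a log2 fold change of -2.19 where Ifnar1 had -0.67, and Tnks1bp1 one of -0.46 where Irf7 had -1.77.

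Ligands of the receptors were nearly undetected. Of 21 interferon genes, Ifnb1, Ifng and all listed alpha interferons among them, 20 had 0 counts in all 6 libraries, which at 3 counts allows up to 0.113 CPM in a library. The exception was Ifnz, an interferon zeta gene with close copies whose reads could be shared, at 1.98, 2.08 and 2.37 CPM in controls and 3.53, 3.84 and 2.75 CPM after Wt1 siRNA. Its groups did not overlap, but its log2 fold change of 0.66 ± 0.33 did not pass (edgeR adjusted p = 0.1996).

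Among the receptor-associated kinases Jak2 was lower. Of 6 other receptor and kinase genes 0 were higher (0 by unadjusted p in edgeR, 0 in DESeq2 and in limma-voom), 1 was lower and 5 did not pass, against 10.3% of all tested genes called lower, with a median log2 fold change of -0.20. Jak2, the kinase of the interferon gamma receptor, fell from 129 ± 17.4 to 79.6 ± 8.23 CPM (-0.70 ± 0.13, edgeR adjusted p = 0.00265), opposite in sign to Ifngr1 and Ifngr2. Jak1, which serves both receptors, had 413 ± 21.2 and 392 ± 19.4 CPM (-0.08 ± 0.10), and Tyk2 25.5 ± 4.41 and 31.97 ± 3.90 CPM (0.32 ± 0.16); neither passed.

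Of 4 other STAT genes in the list that were tested 1 was lower and 0 higher (edgeR, and also with DESeq2 and limma-voom). If p is not adjusted, 1 was higher. Among all tested genes 10.3% were called lower and 9.05% higher, the shares to set beside each list of this paragraph. Stat3, which carries signals of the interleukin 6 family, fell from 329 ± 19.3 to 194 ± 13.2 CPM (-0.76 ± 0.10). Of 7 other IRF and IRF-cofactor genes 0 passed in either direction in edgeR, DESeq2 or limma-voom, and 1 was higher and 0 lower if the edgeR p is not adjusted. Among the 6 nuclear import and coactivator genes 1 was lower, Kpnb1 or importin beta (-0.42 ± 0.10, adjusted p = 0.0124; 0.0852 without Wt1 siRNA library 4), and 0 were higher, as with p not adjusted, DESeq2 or limma-voom.

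Of 13 negative regulators tested 2 were lower and 1 higher, a share near the 19.3% of all tested genes called, with a median of -0.05. Socs3, a feedback inhibitor of cytokine receptors, fell from 97.4 ± 12.4 to 43.9 ± 3.74 CPM (-1.15 ± 0.13, edgeR adjusted p = 1.48e-04). Usp18, which removes ISG15 and binds IFNAR2, fell from 64.0 ± 23.5 to 26.3 ± 4.91 CPM (-1.28 ± 0.25). Cish, a feedback inhibitor of STAT5 signalling, rose from 2.37 ± 0.86 to 5.81 ± 1.92 CPM (1.29 ± 0.36, adjusted p = 0.0254), and 0 members were higher when any of libraries 1, 2, 4 and 5 was left out. Socs1, an inhibitor of JAK kinases, had 2.04 ± 0.54 and 4.02 ± 0.94 CPM (0.98 ± 0.35) and did not pass (adjusted p = 0.0691).

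The listed genes of nucleic acid sensing upstream of IRF3 and IRF7, which are sensors, adaptors and kinases together, mostly did not pass. Of 15 tested, 3 were lower and 0 higher (edgeR), against 10.3% and 9.05% of all tested genes, with a median of -0.07. Also 0 were higher if p is not adjusted, in DESeq2 and in limma-voom. The lower ones were Ifih1, the double-stranded RNA sensor MDA5 (17.8 ± 2.80 to 9.80 ± 0.61 CPM, -0.86 ± 0.17), Traf3, an adaptor ligase (-0.56 ± 0.13, a call lost without Wt1 siRNA library 4 or 5), and Irak1, a kinase of Toll-like receptor signalling (-0.38 ± 0.10). The lower count was 5 with DESeq2, with library size scaling or with no filter, and 1 without Wt1 siRNA library 4. Tbk1, the kinase that phosphorylates IRF3, had 81.9 ± 10.04 and 80.6 ± 6.15 CPM (-0.02 ± 0.12).

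Of 26 genes known as targets of ISGF3 18 passed as lower and 0 as higher (edgeR), against 10.3% and 9.05% of all tested genes. This left 8, and the median was -0.96. Also 0 were higher if p is not adjusted, in DESeq2 and in limma-voom. Eif2ak2, the double-stranded RNA-activated kinase, had 121, 124.8 and 137 CPM in controls and 52.6, 56.7 and 57.0 CPM after Wt1 siRNA. Zbp1, a sensor of Z-form nucleic acids, fell by 1.87 ± 0.20 on the log2 scale, and Ifit1, which binds foreign RNA caps and has close family members, by 2.23 ± 0.26. Promoter windows covered 18 of the 26 genes, and those of 8 held the ISRE core (38.1% of their windows, against 3.44% of all windows). The interferon gamma targets described next held it in 7 of 15 genes with a window (43.8% of windows). GAS was in 28.6% of the windows of the ISGF3 targets and 25% of those of the interferon gamma targets, against 8.3% of all windows. The GC-rich core was in 1 window of each list (4.76% and 6.25%, against 12.3% of all windows).

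Of 18 tested genes known as targets of interferon gamma 8 passed as lower and 1 as higher, which left 9 (edgeR), with a median of -0.44. Of all tested genes 10.3% were called lower and 9.05% higher. The receptor of interferon gamma is the 1 whose chains were higher, but whether it signalled in these cells was not tested. Ifng itself had 0 counts in all 6 libraries. Iigp1, an immunity-related GTPase, fell from 90.4, 138 and 131 CPM to 28.5, 29.5 and 27.0 CPM (log2 fold change -2.08 ± 0.16). Cxcl10, a T cell chemokine, fell from 7.05 ± 2.78 to 0.404 ± 0.26 CPM (-4.13 ± 0.49; -4.75 without Wt1 siRNA library 5), and Igtp, another GTPase, by 0.997 ± 0.17 on the log2 scale. The lower members also included Gbp2, Gbp3, Gbp4, Tap1 and Icam1, and the higher one was Tap2, a chain of the peptide transporter (0.47 ± 0.15, adjusted p = 0.0411). When library 2 or library 5 was left out 5 were lower, and 0 were higher with library size scaling or when any of libraries 1, 3, 4 and 5 was left out. Many of the listed genes answer to both kinds of interferon, and the 2 lists do not separate the branches.

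**Figure D5:**
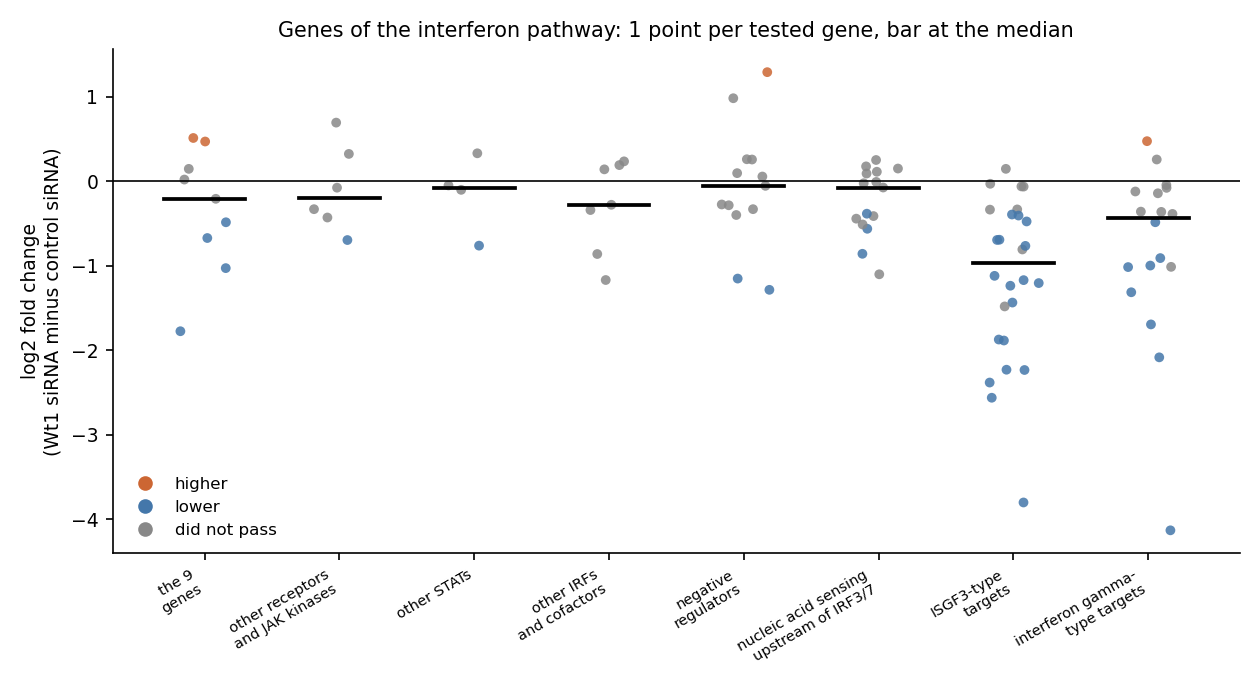
Log2 fold change (vertical axis, Wt1 siRNA minus control siRNA, edgeR) of each tested gene, as 1 point, in the 9 genes and in 7 lists of the interferon pathway, with a bar at each median. The ISGF3-type targets lie lowest, with a median of -0.96, while the medians of the signalling lists lie between -0.28 and -0.05.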

How the data were processed

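The authors deposited a table of raw, whole-number read counts per Entrez gene for 6 libraries, per the file headers, with no normalization. Build mm10 (GRCm38) and the tools TopHat, DESeq, bcl2fastq and CASAVA 1.8 are listed, per the submitters' processing notes, with no role or order. Not given in the sources used here are the counting tool, annotation and strand setting, so overlapping genes and close copies could share reads. IDs were named with RefSeq (23976) or GENCODE M21 (7); 78 stayed unnamed but were tested.

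These counts were tested with edgeR 4.0.16 in R 4.3.3 (quasi-likelihood F test, TMM factors of 0.940 to 1.07, filterByExpr, group as the only term). The p-values were adjusted by Benjamini-Hochberg over all tested genes. The procedure was also run on simulated counts, as a check of the code. That run changed a far smaller share of genes than was called here and does not measure power for the changes described. The SE follows from the log2 fold change and the F value. Log2 CPM used a prior count of 2. Transcript lengths are those of GENCODE transcripts paired with RefSeq. Alternatives were DESeq2 1.42.0, limma 3.58.1 (voom), other scalings, filters and shrinkage, and leaving out each library.

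The 9 genes, lists and tests were chosen with earlier results of these data known. Genes named are the 9, Wt1, set pathway genes (Jak1, Jak2, Tyk2, Tbk1, Usp18, Socs1, Socs3), the members of each list with the smallest p among those called (2 a list, 3 for target lists) and the closest profiles. Neighbours on chromosome 16, overlapping genes, named cell type markers, Ifnz, Cish, Irak1, Tap2 and the other named targets were chosen after their values were seen. Some items are not reported here and are left out of the list counts.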

Additional observations from a re-analysis of the deposited data

How the results depend on the processing

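Across 13 alternatives for each of the 9 genes, 108 of 117 values kept their direction and their side of the threshold; Ifnar1, Ifngr1, Stat2, Irf7 and Ifnar2 did so in all. Leaving out 1 library at a time gave log2 fold changes of -0.74 to -0.58 for Ifnar1, -0.29 to -0.08 for Ifnar2, 0.47 to 0.55 for Ifngr1, 0.44 to 0.52 for Ifngr2, -1.12 to -0.94 for Stat2, -0.61 to -0.42 for Irf9, -0.064 to 0.086 for Irf1, -0.026 to 0.29 for Irf3 and -1.93 to -1.42 for Irf7. Of these, Ifngr2 lost its call without 1 library and Irf9 without any of 4, and uncalled Irf1 and Irf3 changed sign; the cause was not tested. It gave 1 to 2 of the 9 genes higher and 3 to 4 lower, 578 to 1253 genes higher and 785 to 1406 lower in all, and, among listed genes called lower, 0 to 1 other IRFs and cofactors, 1 to 4 sensing genes, 14 to 18 ISGF3 targets, 5 to 8 interferon gamma targets and 0 to 2 import genes; 0 to 1 negative regulators and 0 to 1 interferon gamma targets were higher. Tbk1, uncalled, ranged from -0.11 to 0.068. Library size scaling moved the median of all genes by -0.09; 855 genes were then higher and 1829 lower, a share of 31.9% higher in place of 46.8%, Irf1 was at -0.069, 2 other receptor or kinase genes and 2 import genes were lower, 5 sensing genes were lower (also 5 with DESeq2 and with no filter), and 0 interferon gamma targets were higher. No paired analysis was run, because the labels do not say whether libraries of the 2 groups are paired. At these depths Irf3 and Irf7, with 103 to 626 counts a library, are the least precise of the 9.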
